A study of Mus musculus with 36 samples.

Results

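RU486 and corticosterone, each given alone, were compared in mouse astrocyte cultures on 18 of the 36 arrays of the series: 9 RU486 arrays and 9 corticosterone arrays, chosen by the ligand and time in their titles. Each ligand was measured after 2, 4 and 6 h of treatment, with 3 arrays for each ligand and time, and the ligands were compared within each time and averaged over the 3 times. The cultures came from the brains of C57B/6 mouse pups of stage P0-P2; the samples are named as cortical astrocyte cultures, while the shared growth text allows cortex or hippocampus. All groups were primary cultures grown close to confluence in DMEM with fetal bovine serum; the labels do not say that serum was withdrawn for the treatment, and no genetic change is labelled in any group. Corticosterone was used at 100 nM and RU486 at 500 nM, so the compound and its dose cannot be told apart in any difference described here. The remaining 18 arrays are 9 of vehicle and 9 of both ligands given together. The vehicle arrays are used only to show the level without added ligand. The labels do not say whether the 3 arrays of a group are separate cultures, so p-values measure the spread between arrays, which may be technical.

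Corticosterone is the main glucocorticoid of the mouse. It binds the glucocorticoid receptor, a nuclear receptor that is held in the cytoplasm by chaperones, moves to the nucleus when bound, and raises or lowers transcription of its target genes. RU486 (mifepristone) is a synthetic steroid that binds the same receptor, as well as the progesterone receptor, and blocks activation by agonists; in some cell types it has weak agonist activity of its own. Astrocytes are a brain cell type rich in the glucocorticoid receptor and are known to answer glucocorticoids with metabolic, circadian and signalling genes.

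The receptor binds DNA as a pair at palindromic elements of the type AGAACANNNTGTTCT, and 3 promoters of genes described below are shown because they carry that element or its core. The sequences are 300-base windows around annotated start sites, taken from RefSeq on build GRCm38.p6 and written 5′ to 3′ on the gene's strand, with the matched letters in capitals. Sgk1 (chr10:21993640-21993939, plus strand) held the full element 189 bases before its start site, in 1 of the 6 promoters listed for the gene. Fam107a (chr14:8309730-8310029, minus strand) and Lcn2 (chr2:32387690-32387989, minus strand) held the core ACANNNTGT.
Sgk1: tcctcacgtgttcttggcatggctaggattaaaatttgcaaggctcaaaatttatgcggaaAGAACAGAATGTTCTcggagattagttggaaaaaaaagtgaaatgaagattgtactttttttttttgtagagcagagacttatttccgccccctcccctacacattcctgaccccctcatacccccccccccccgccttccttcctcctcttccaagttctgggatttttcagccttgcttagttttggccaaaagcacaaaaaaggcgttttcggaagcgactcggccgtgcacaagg
Fam107a: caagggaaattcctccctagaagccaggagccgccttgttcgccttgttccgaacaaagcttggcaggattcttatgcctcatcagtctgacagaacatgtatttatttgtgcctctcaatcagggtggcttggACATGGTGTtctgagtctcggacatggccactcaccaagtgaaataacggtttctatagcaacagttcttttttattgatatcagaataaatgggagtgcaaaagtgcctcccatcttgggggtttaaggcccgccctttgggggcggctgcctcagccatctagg
Lcn2: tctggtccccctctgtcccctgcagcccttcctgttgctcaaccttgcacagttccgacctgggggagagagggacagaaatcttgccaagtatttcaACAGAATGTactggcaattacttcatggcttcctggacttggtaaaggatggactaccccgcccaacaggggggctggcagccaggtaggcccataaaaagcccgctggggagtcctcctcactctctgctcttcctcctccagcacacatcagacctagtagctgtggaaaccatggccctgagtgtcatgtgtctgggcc
The full element was found in 3 of the 32851 promoters of the RefSeq table (0.00913%) and the core in 2249 (6.85%); both are palindromes, so 1 search covers both strands, and every full match also contains the core. Of the 23 promoters of the 12 genes named below as lowest with RU486 on the mean over times, 1 held the full element and 4 the core. Of these 4, 2 were promoters of Sgk1 and 2 of Fam107a, so no other gene of the 12 had a match. Promoters of the same gene were counted separately, so the counts are not shares of genes. Of the 11 promoters matched to 8 of the 12 genes ranked highest, 0 held either. These are matches of letters in a short window and say nothing of receptor binding.

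The cultures carried the markers of the labelled cell type. Of 14 astrocyte markers on the array, 11 had a median intensity above 2 times the array median, among them Slc1a3 and Slc1a2 (glutamate transporters), Aldh1l1, Aqp4, Gja1, Sox9 and Gfap, while S100b was below the array median. Of the markers of other cell types, 7 of 11 microglial, 5 of 10 oligodendrocyte-lineage, 5 of 7 fibroblast and meningeal, 3 of 10 neuronal and 0 of 7 endothelial genes passed the same level. The summed intensity of the microglial markers ranged from 2133 to 3156 on the RU486 arrays and from 2011 to 3911 on the corticosterone arrays, and the summed fibroblast and meningeal markers ranged from 31580 to 47126 and from 29801 to 43186. At 4 h the fibroblast and meningeal sums did not overlap, with 36304 to 38578 for RU486 and 29801 to 33741 for corticosterone. The neuronal sums were also apart at 4 h, with 9709 to 9906 against 7508 to 8701. At 2 h they were 8703 to 9288 against 7665 to 8276, and at 6 h they overlapped. The oligodendrocyte-lineage sums were lower with RU486 at 2 h, at 24584 to 24751 against 25787 to 30748. At 6 h the astrocyte sums were lower with RU486, at 87802 to 95528 against 97148 to 107775. The sums are of linear intensities, so the brightest members weigh most. Over the 18 arrays Acta2 had a median of 35278 among the fibroblast and meningeal markers, and Olig1 24545 among the oligodendrocyte-lineage markers. Map2 (4353) and Stmn2 (3087) were the brightest neuronal markers. A difference of a sum can therefore be mostly that of a single gene. The part of these markers in the results of any time was not tested. Across all 36 arrays of the series the intensity distributions were nearly the same, with array medians from 110.5 to 111.2. Among the 18 arrays compared here, each array's median correlation with the other 17 ran from 0.964 to 0.991. The first RU486 array at 2 h had the lowest of these correlations, and the main 2 h results are given with and without it. A vehicle array (6 h, replicate 1) stood further apart, with a median correlation of 0.798 with the other 35 arrays, and is left out of the vehicle values given as fold changes.

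Known glucocorticoid-induced genes were the group with the largest shift between the ligands. Averaged over the times, 21 of 28 genes on a list of known glucocorticoid-induced genes were lower with RU486 and 1 was higher, at an adjusted p under 0.05 in limma over all 17513 genes tested. The list was drawn up with earlier results of these data known, so its direction is not independent evidence. Among all genes tested, 12.3% differed on the mean over times (2146 genes), with 5.13% lower (899 genes) and 7.12% higher with RU486 (1247 genes). The median log2 difference, RU486 minus corticosterone, was -0.85 over the list and 0.00 over all genes. The count of all genes that differed was 1372 without the second corticosterone array of 6 h, while the list's count of lower members was 20 to 22 whichever array was left out. Taking each time alone, the lower members numbered 10, then 22, then 20 (2, 4 and 6 h), where 0.291%, 9.93% and 1.15% of all genes were lower; 2 members were higher at 4 h and 0 at 2 h and 6 h, where 10.3%, 0.251% and 0.314% of all genes were higher. Without the first RU486 array of 2 h, 11 members were lower at 2 h and 0 higher.

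Fkbp5, a co-chaperone that binds the glucocorticoid receptor complex, had the largest mean difference among the genes whose arrays were separated by ligand at all 3 times. On the log2 intensity scale its RU486 arrays read 8.93, 8.07 and 7.74 at 2 h, 7.98, 7.75 and 7.55 at 4 h, and 7.62, 7.61 and 7.73 at 6 h. Its corticosterone arrays read 9.50, 9.54 and 9.21 at 2 h, 10.35, 10.50 and 10.65 at 4 h, and 10.89, 10.85 and 10.90 at 6 h. Corticosterone arrays were higher at each later time and RU486 arrays were not, and the ligands did not overlap at any time. The log2 difference was -1.17 at 2 h, -2.74 at 4 h and -3.23 at 6 h, with a mean of -2.38 ± 0.12 (SE; adjusted p = 5.05e-10). Without the first RU486 array the 2 h difference of Fkbp5 was -1.51 (adjusted p = 2.32e-05). The difference was larger at 6 h than at 2 h by -2.06 (adjusted p = 0.00303).

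Tsc22d3, which encodes the glucocorticoid-induced leucine zipper protein GILZ, read 10.82, 10.15 and 9.97 on the RU486 arrays at 2 h against 11.77, 11.80 and 11.70 with corticosterone. At 6 h its RU486 arrays read 10.74, 10.69 and 10.85 and its corticosterone arrays 12.98, 13.18 and 13.26. The ligands were apart at all times, and the mean log2 difference was -1.96 ± 0.10 (SE; adjusted p = 5.85e-10). Sgk1, the serum- and glucocorticoid-regulated kinase whose promoter is printed above, read 12.22, 12.08 and 11.97 with RU486 and 13.21, 13.46 and 13.57 with corticosterone at 2 h. At 6 h Sgk1 read 11.21, 11.29 and 11.21 with RU486 and 13.40, 13.35 and 13.01 with corticosterone, and its mean log2 difference was -1.74 ± 0.07 (SE; adjusted p = 8.28e-11). With corticosterone the Sgk1 arrays of 2 h and 6 h overlapped, whereas every Tsc22d3 array of 6 h was above those of 2 h.

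**Figure D1:**
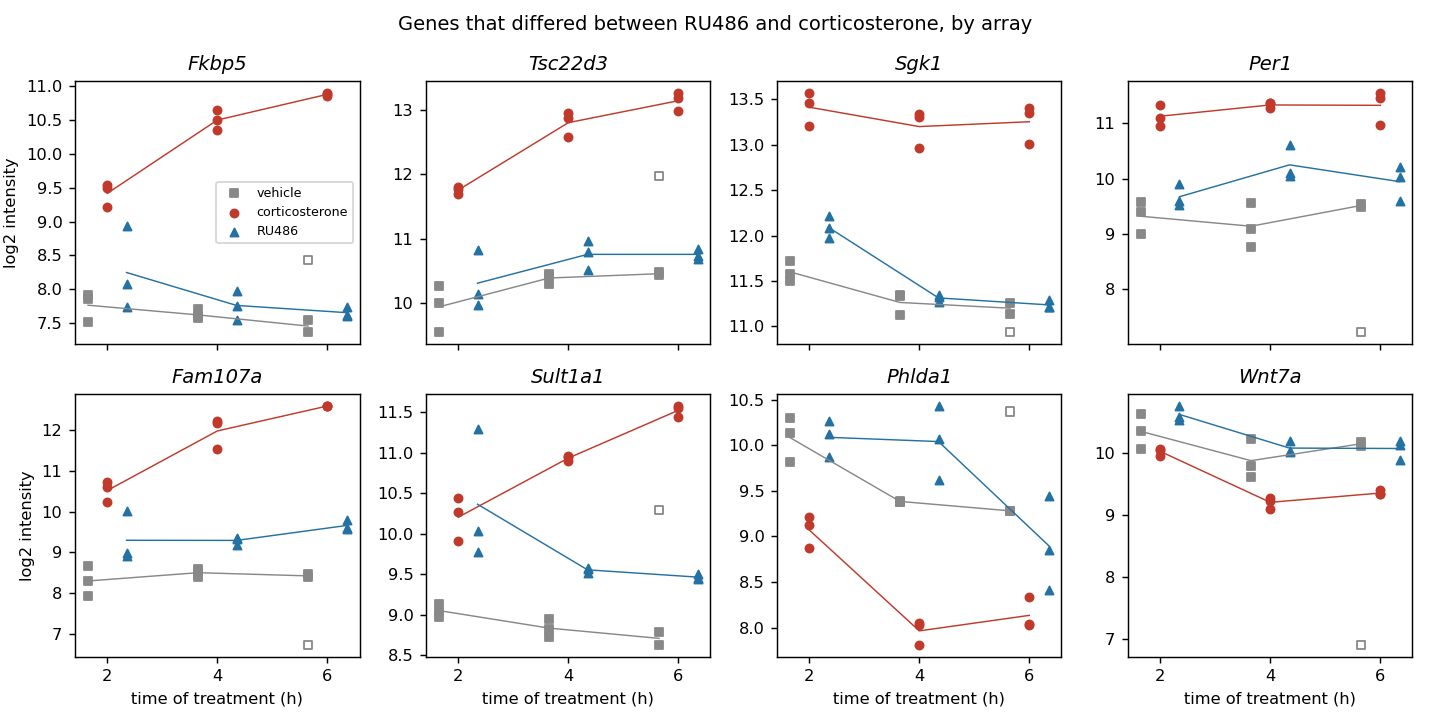
Log2 intensity (y axis) of 8 genes on each array against the time of treatment in h (x axis), for vehicle (grey squares), corticosterone (red circles) and RU486 (blue triangles); lines join group means, and the open square is the vehicle array at 6 h that stood apart and is left out of its mean. Fkbp5, Tsc22d3, Sgk1, Per1 and Fam107a are lower with RU486 than with corticosterone at every time, Sult1a1 at 4 and 6 h, and Phlda1 and Wnt7a are higher.

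The other members of the 12 lowest genes cover transcription, fuel use and the cytoskeleton. Klf9, a Kruppel-like transcription factor, read 9.52, 10.89 and 10.96 with RU486 and 12.17, 12.45 and 12.60 with corticosterone at 2 h, and its difference was alike at 2, 4 and 6 h (-1.95, -1.91 and -1.75). Per1, a negative limb component of the circadian clock, behaved likewise, with log2 differences of -1.45, -1.09 and -1.38. Of the 2 other probes of Per1, 1 was called the same way on the mean and at 2 h, and the other had the opposite sign. For both genes the 2 h difference remained past the threshold without the first RU486 array (Klf9 -1.48, adjusted p = 0.00501; Per1 -1.57, adjusted p = 0.000556), as did those of Tsc22d3 (-1.69) and Sgk1 (-1.39).
Pdk4, a kinase that inhibits pyruvate dehydrogenase and so spares glucose, had a mean log2 difference of -1.79, with -0.98 at 2 h and -2.46 at 6 h; its 1 other probe was not called on the mean, and at 6 h it had the opposite sign. Bcat1, the cytosolic transaminase of branched-chain amino acids, had a mean of -1.96, and Slc25a33, a mitochondrial carrier of pyrimidine nucleotides, a mean of -1.58 with the smallest standard error of the 12 (0.05).
Fam107a, an actin-associated stress-responsive gene, differed by -2.28, Tns1, the focal-adhesion protein tensin, by -1.47, and Rhou, an atypical small GTPase, by -1.30. Hif3a, an alpha subunit of the hypoxia-inducible factors, differed by -1.47, and neither of its 2 other probes was called. Its RU486 arrays, from 6.39 to 6.84, lay near the array median, where background left in the values would make a difference look smaller.

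Over all genes, 28 symbols were lower with RU486 at each of the 3 times taken alone and 1 was higher. Besides the 12 above, the lower ones included Nfkbia (the inhibitor IkB-alpha), Zbtb16 (a zinc-finger repressor), Mertk (a phagocytic receptor kinase of astrocytes), Pim3, Plxna2, Cables1, Spsb1 and Slc10a6. Mertk differed by -0.87 at 2 h, -1.14 at 4 h and -1.55 at 6 h. The single higher gene was Wnt7a, a Wnt ligand: its RU486 arrays read 10.76, 10.53 and 10.58 at 2 h, 10.19, 10.03 and 10.02 at 4 h, and 9.89, 10.13 and 10.20 at 6 h, against 10.07, 10.05 and 9.96, then 9.10, 9.23 and 9.28, and then 9.33, 9.33 and 9.40 with corticosterone. Wnt7a differed by 0.60, 0.88 and 0.72 at the 3 times, and by 0.53 at 2 h without the first RU486 array (adjusted p = 0.0269). Without that array 25 of the 29 genes were still called at 2 h; Tns1, Zbtb16, Eva1a and Punc were not (adjusted p from 0.0794 to 0.119). Genes that differed on the mean and had non-overlapping arrays at all 3 times numbered 74 lower (0.423% of all genes) and 71 higher (0.405%).

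Of the 28 list members, 6 were not called on the mean over times. Dusp1, a MAP kinase phosphatase, differed by -0.12 (95% interval -0.32 to 0.08), Cdkn1a, the cell-cycle inhibitor p21, by -0.10 (-0.25 to 0.05), and Mt1, a metallothionein, by 0.11 (0.00 to 0.22). Cebpd differed by -0.15 and Tsc22d1 by -0.33, both short of the threshold, and Rhob by 0.18. Beside these, Angptl4, a secreted inhibitor of lipoprotein lipase, was the 1 member higher with RU486 (0.28 ± 0.07, SE; adjusted p = 0.0174). Mt2, the other metallothionein, was lower (-0.57 ± 0.17, SE), so the pair did not show the same call; their difference from each other was not tested.

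**Figure D2:**
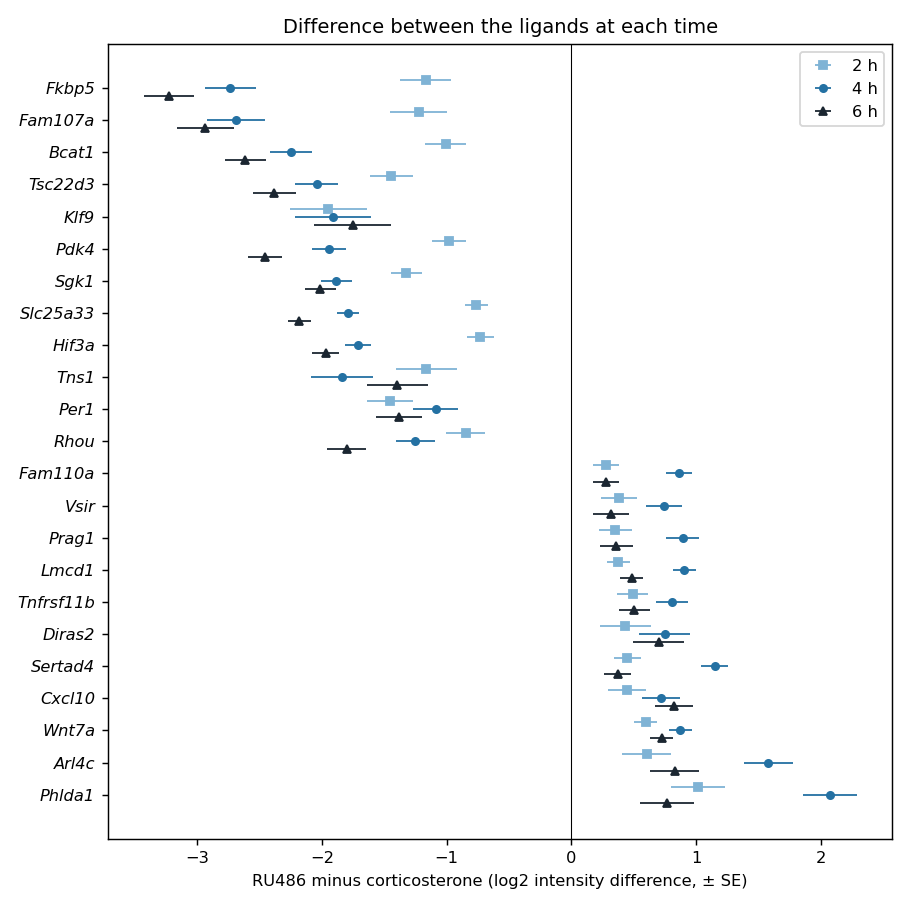
Log2 difference, RU486 minus corticosterone, at 2 h (light squares), 4 h (circles) and 6 h (dark triangles) for the lowest and the highest genes of the mean over times that are reported here; bars are standard errors from the fit of 18 arrays, 3 per group. Fkbp5 runs from -1.17 to -3.23 with time, Klf9 keeps near -1.95 to -1.75, and several higher genes, such as Phlda1 (2.07 at 4 h), peak at 4 h.

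Against vehicle, RU486 alone raised few of these genes, and corticosterone raised most of them. With the vehicle array that stood apart left out, 4 of the 28 glucocorticoid-induced genes were higher with RU486 than with vehicle and 0 lower, where 0.377% of all genes were higher and 0.377% lower. Corticosterone had 23 members higher and 0 lower, where 4.48% of all genes were higher and 6.40% lower. The median log2 difference from vehicle over the list was 0.18 for RU486 and 0.96 for corticosterone. These contrasts share the vehicle arrays with each other and the ligand arrays with the main comparison, so they are set side by side and not tested against one another.

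Fam107a was the clearest of the 4. Its vehicle arrays read 7.92, 8.31 and 8.67 at 2 h, 8.39, 8.52 and 8.60 at 4 h, and 8.39 and 8.46 at 6 h, with 6.73 on the array that stood apart. Its RU486 arrays read 10.01, 8.98 and 8.91, then 9.19, 9.36 and 9.34, and then 9.57, 9.61 and 9.81, above every vehicle array of the same time. Its corticosterone arrays read 10.23, 10.61 and 10.73, then 11.54, 12.19 and 12.23, and 12.60 on all 3 arrays at 6 h. RU486 thus stood at 1.01 ± 0.14 (SE; adjusted p = 0.00194) above vehicle on the log2 scale and corticosterone at 3.29 ± 0.14.
Sult1a1, a sulfotransferase of phenols and drugs, was 0.93 ± 0.13 (SE; adjusted p = 0.00226) above vehicle with RU486 and 2.02 with corticosterone; its RU486 arrays read 9.58, 9.57 and 9.52 at 4 h against 8.73, 8.83 and 8.95 with vehicle. Per1 was 0.63 (adjusted p = 0.0182) above vehicle with RU486 and 1.94 with corticosterone, and Bcl6, a transcriptional repressor, 0.40 (adjusted p = 0.0400) and 1.02. Fkbp5 stood at 0.28 ± 0.11 (SE; adjusted p = 0.265) with RU486 and 2.65 with corticosterone, and Klf9 at -0.07 and 1.81. With the vehicle array that stood apart put back, 1 list member (Fam107a, adjusted p = 0.0270) was higher with RU486 and 20 with corticosterone.

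**Figure D3:**
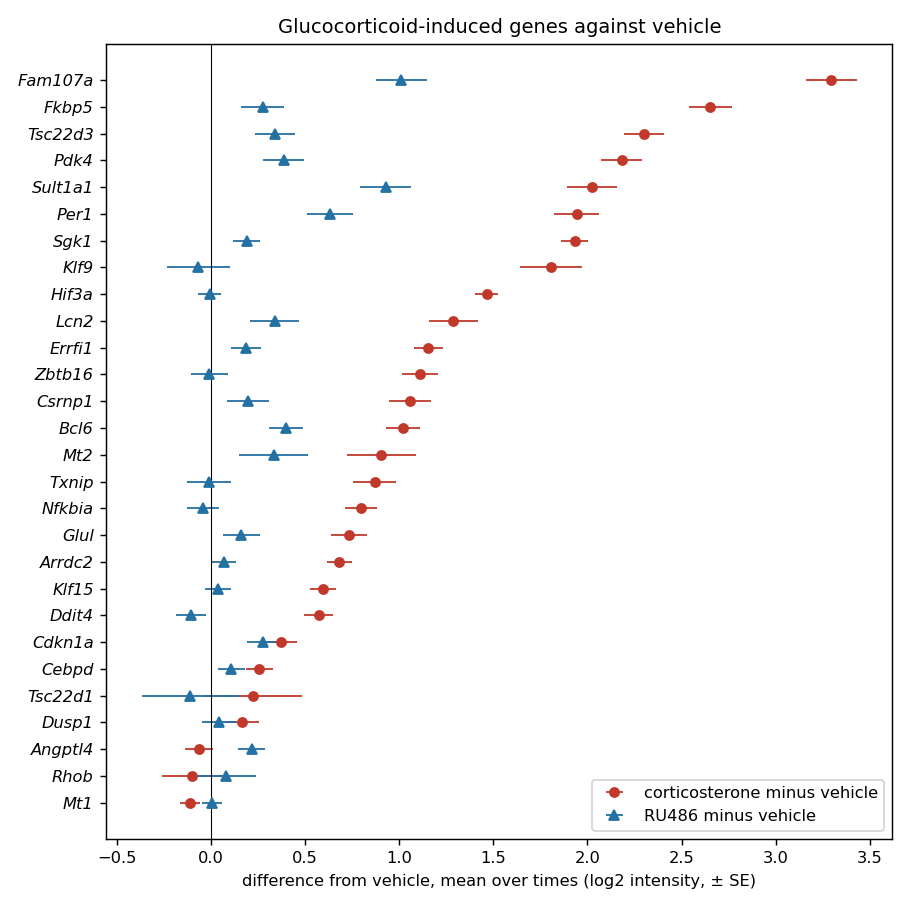
Log2 difference from vehicle, averaged over the 3 times, for the 28 glucocorticoid-induced genes with corticosterone (red circles) and RU486 (blue triangles); bars are standard errors, from 26 arrays. Corticosterone reaches 3.29 for Fam107a and 2.65 for Fkbp5, while the RU486 points lie between -0.11 and 1.01.

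Of the genes ranked highest with RU486 on the mean over times, most of those reported here read below vehicle with corticosterone; they were ranked on the same corticosterone arrays, so these values are a description. Phlda1, a pleckstrin-homology-like protein, read 10.27, 9.87 and 10.12 with RU486 and 9.13, 9.21 and 8.87 with corticosterone at 2 h. At 4 h it read 9.62, 10.07 and 10.43 against 7.81, 8.03 and 8.05, and at 6 h 8.41, 8.85 and 9.44 against 8.03, 8.04 and 8.33. The ligands did not overlap, and the mean log2 difference was 1.29 ± 0.12 (SE; adjusted p = 4.16e-06). Against vehicle, Phlda1 stood at 0.09 with RU486 (adjusted p = 0.790) and -1.19 with corticosterone (adjusted p = 4.85e-07). Of the other highest genes, Wnt7a, Arl4c, Cxcl10, Sertad4, Diras2, Tnfrsf11b, Lmcd1, Prag1 and Vsir were also below vehicle with corticosterone, by log2 differences from -0.39 (Vsir) to -1.04 (Cxcl10), and Fam110a was not (-0.11, adjusted p = 0.563). With the vehicle array that stood apart put back, Arl4c, Wnt7a, Cxcl10 and Prag1 were no longer called below vehicle with corticosterone (adjusted p of 0.466, 0.695, 0.0559 and 0.140). Of the genes named here, 0 were called against vehicle with RU486, where 2464 of all genes had an unadjusted p under 0.05 and limma called 132, and their values ran from -0.38 (Cxcl10, adjusted p = 0.0611) to 0.36 (Fam110a, adjusted p = 0.0941).

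Trophic factors were split. Bdnf, the brain-derived neurotrophic factor, read 9.32, 9.24 and 9.14 with RU486 against 8.52, 8.50 and 8.47 with corticosterone at 2 h, and 8.08, 7.97 and 8.39 against 7.85, 7.78 and 7.98 at 6 h, where the ligands overlapped. Its mean log2 difference was 0.55 ± 0.06 (SE; adjusted p = 3.03e-05), with 0.74 at 2 h (0.69 without the first RU486 array, adjusted p = 0.0158), 0.63 at 4 h and 0.27 (adjusted p = 0.435) at 6 h. Hbegf, a ligand of the EGF receptor, was higher by 0.36, while the neuregulin Nrg1 (-0.54), Tgfb2 (-0.45) and the neurotrophin Ntf3 (-0.24) were lower. The median difference over the 16 tested factors was 0.12, and 5.13% of all genes were lower and 7.12% higher on the mean over times.

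Inflammatory genes of the list used here moved in 1 direction where they were called. Nfkbia, an NF-kB inhibitor lower with RU486 at each time (-1.13 at 2 h), was counted on the glucocorticoid-induced list and not on this one. Of 20 tested members of a cytokine and NF-kB list, 7 were higher with RU486 and 0 lower, and the median difference was 0.11; over all genes 7.12% were higher and 5.13% lower. Cxcl10, an interferon-induced chemokine, led with 0.66 ± 0.09 (SE; adjusted p = 0.000135); at 6 h its RU486 arrays read 8.74, 8.63 and 8.17 and its corticosterone arrays 7.54, 7.74 and 7.80. Tnfaip3 (0.47), the adhesion molecules Vcam1 (0.38) and Icam1 (0.29), the NF-kB subunit Relb (0.37), Ccl7 (0.27) and the cytokine Lif (0.24) were the others. Ccl7 lay near the array median, at 6.75 to 7.49 with RU486 and 6.51 to 6.96 with corticosterone. Tnf differed by 0.15 (95% interval 0.02 to 0.28), Ccl2 by 0.19 (0.02 to 0.36) and Cxcl1 by 0.00 (-0.22 to 0.23), none of them called; Il6, Il1b, Ptgs2 and Cxcl5 had no probe that passed the signal filter. The cultures were not given an inflammatory stimulus, as far as the labels state.

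Metabolic lists showed single members with large differences rather than shifts of the whole list. On the mean over times, 5.13% of all genes were lower and 7.12% higher with RU486. Of 18 genes of glutamate, proline and branched-chain amino acid handling, 5 were lower with RU486 and 1 higher, and the list median was -0.05. Prodh, the first enzyme of proline breakdown, read 8.67, 7.78 and 7.55 with RU486 and 8.27, 7.76 and 8.13 with corticosterone at 2 h, where the ligands overlapped. At 4 h Prodh read 7.35, 7.24 and 7.20 against 9.47, 9.41 and 9.56, and at 6 h 7.62, 7.83 and 7.52 against 10.22, 10.18 and 9.88. Folh1, a carboxypeptidase that releases glutamate from N-acetylaspartylglutamate, differed by -1.29 on the mean, the amino acid transporter Slc38a2 by -0.57, and Glul, glutamine synthetase, by -0.57; the astrocyte glutamate transporters Slc1a2 (-0.07, 95% interval -0.21 to 0.08) and Slc1a3 (-0.06, -0.18 to 0.06) were not called. Of 18 genes of glucose and pyruvate handling, Pdk4 and the phosphatase Pdp2 (-0.56) were lower and Ldha (0.30) and Pygb (0.39) higher. Of 20 cholesterol genes, 5 were higher on the mean, led by Dhcr7 (0.54), and 0 lower. Taken by time, 5 were higher at 4 h, where 10.3% of all genes were higher, and 0 were called at 2 h and 6 h. The difference of Dhcr7 was 1.17 at 4 h and 0.18 at 6 h.

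Clock genes and growth-restraint genes were called in part. Over all genes, 5.13% were lower and 7.12% higher with RU486 on the mean over times. Of 14 clock genes, 5 were lower (Per1, Per2, Ciart, Tef and Hlf) and 3 higher (Bhlhe40, Dbp and Nr1d1), while Clock differed by 0.02 and Arntl by 0.17, not called. Hlf lay near the array median with both ligands, at 6.3 to 6.73 with RU486 and 6.41 to 7.09 with corticosterone. Per2 differed by -0.26 at 2 h, -0.54 at 4 h and -0.85 at 6 h. Of 22 genes of FoxO and insulin signalling, 5 were lower with RU486, among them the stress-induced sestrin Sesn1 (-1.01), the phosphatidylinositol 3-kinase regulatory subunit Pik3r1 (-0.73) and the mTORC1 inhibitor Ddit4 (-0.68), and Trib2 (0.35) was higher. Of 11 feedback inhibitors of MAP kinase and EGF receptor signalling, Errfi1, which inhibits the EGF receptor, was lower (-0.97 ± 0.08, SE) and Dusp10, Spry4, Lrig1 and Dusp14 were higher by 0.25 to 0.46. Of 12 Kruppel-like factors, Klf9, Klf13, Klf5 and Klf15 were lower and Klf4 higher. Of 13 immediate-early genes 3 were higher (Fos, Ier3 and Junb).

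The receptor gene differed by a small amount. On the mean over times 5.13% of all genes were lower and 7.12% higher with RU486. Nr3c1, which encodes the glucocorticoid receptor, differed by 0.20 ± 0.06 (SE; adjusted p = 0.0454), with no single time called, and stood at -0.05 against vehicle with RU486 (adjusted p = 0.792) and -0.25 with corticosterone (adjusted p = 0.0229, and 0.354 with the vehicle array that stood apart put back). Of 17 tested receptor and chaperone genes, Fkbp5 was lower and Nr3c1, Stip1 (0.31) and Fkbp4 (0.36), both co-chaperones, were higher; the mineralocorticoid receptor Nr3c2 and the progesterone receptor Pgr, a second target of RU486, had no probe that passed the filter. Of 15 genes of steroid and drug metabolism, Sult1a1 (-1.10) and Hsd11b2 (-0.49) were lower and Cyp1b1 (0.64) and Cyp7b1 (0.19) higher, and Hsd11b1, the enzyme that regenerates active glucocorticoid, differed by 0.08 (95% interval -0.09 to 0.26).

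Astrocyte genes and reactive astrocyte genes went both ways. Of 13 tested astrocyte markers, Gjb6, a gap-junction connexin, Glul and Ndrg2 were lower with RU486 and Gfap and Atp1b2 higher. Gjb6 read 6.82, 6.78 and 7.05 with RU486 and 9.20, 9.15 and 8.91 with corticosterone at 6 h, and its mean log2 difference was -1.58 ± 0.09 (SE; adjusted p = 3.99e-09). Gja1, the main astrocyte connexin, differed by -0.01 (95% interval -0.17 to 0.16), Aqp4 by -0.04 (-0.50 to 0.42) and Aldh1l1 by 0.01 (-0.19 to 0.22). Of 26 reactive astrocyte genes 4 were lower and 7 higher on the mean; Lcn2, the secreted lipocalin, was lower (-0.95), as were Fkbp5, the bile acid transporter family member Slc10a6 (-0.97) and the heat-shock protein Hspb1 (-0.87), and Gfap (1.05), Cxcl10, Ptx3, Gbp2, Clcf1, Emp1 and S1pr3 were higher. Of the markers of other cell types, 0 of 10 microglial, 0 of 9 oligodendrocyte-lineage, 0 of 5 endothelial and 0 of 6 fibroblast and meningeal genes were called on the mean, and 1 of 6 neuronal genes was higher (Stmn2, 0.28). Of the remaining lists, 1 oxidative stress gene was lower and 1 higher of 14, 1 unfolded protein response gene was higher of 16, 2 matrix and integrin genes were higher of 19 (Itga5, 0.83, and Col6a1, 0.37), 2 cell cycle genes were lower and 1 higher of 20, and 3 connexin, claudin and ion transport genes were lower and 2 higher of 18; with 12.3% of all genes called, most of these shares lie near that of all genes. In a culture, fewer cells of a type and less RNA per cell cannot be told apart.

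**Figure D4:**
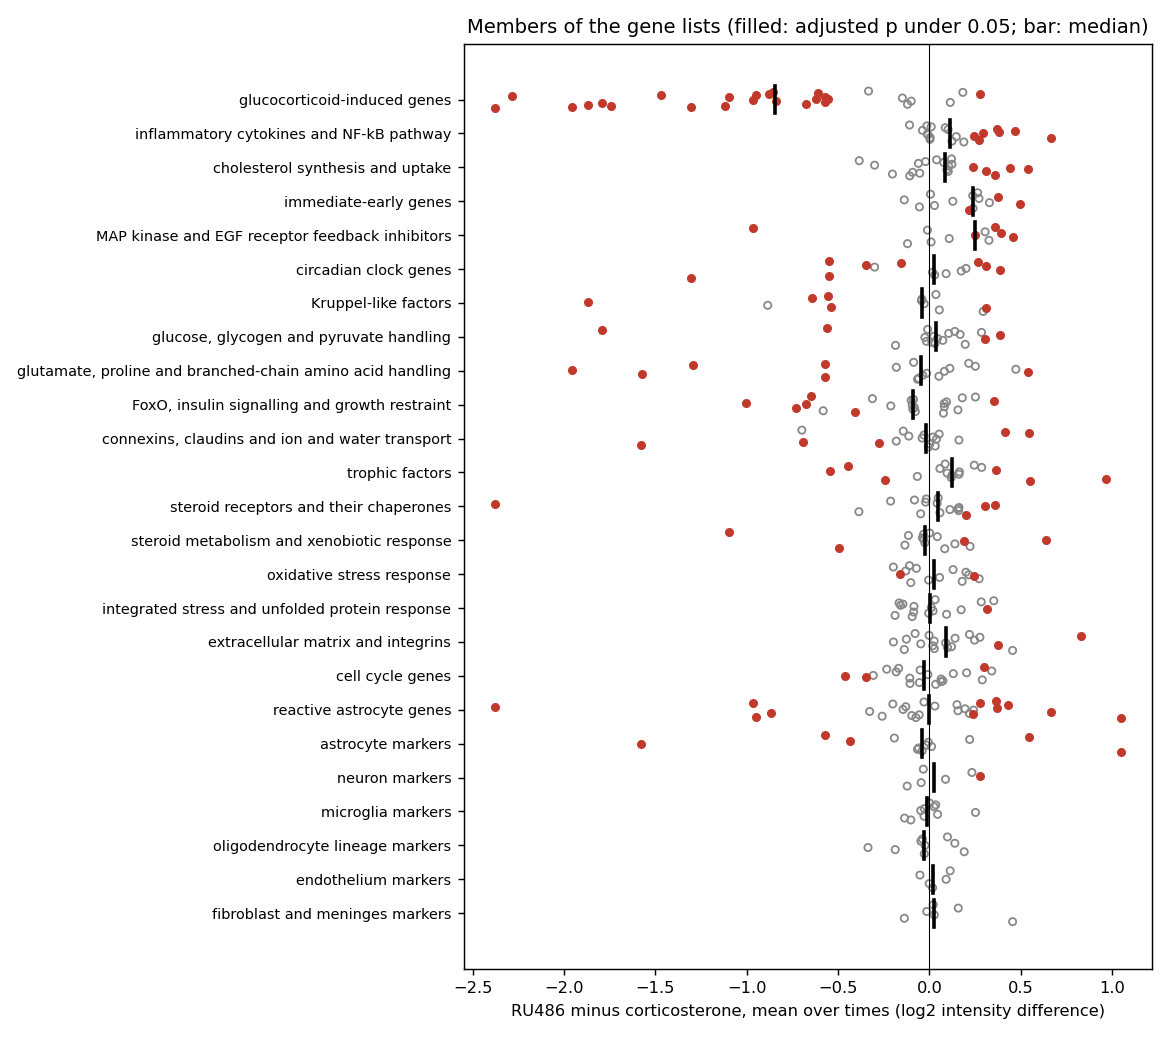
Mean-over-times log2 difference, RU486 minus corticosterone (x axis), of each tested member of the gene lists (rows); filled red points passed an adjusted p of 0.05, open grey points did not, and the black bar is the list median. The glucocorticoid-induced list has its median at -0.85, and the other medians lie between -0.09 and 0.25.

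The comparison at 2 h gave 95 genes (0.542%), 44 higher and 51 lower with RU486. The lowest with separated arrays were Klf9, Per1, Tsc22d3, Sgk1 (-1.32) and the antiproliferative factor Tob2 (-1.30), and among the highest were Lbh (1.36), Phlda1, the calcium- and calmodulin-dependent phosphodiesterase Pde1b (0.98) and Plekho2 (0.97). Replicate numbers went together with the deviations of the 2 h arrays only in part, and with the number as a block 1293 genes were called. With only the 6 arrays of 2 h in the fit, 0 were called by limma and 2021 had an unadjusted p under 0.05. Without the first RU486 array 60 genes were called and Tob2, Lbh, Phlda1, Pde1b and Plekho2 fell short (adjusted p from 0.0512 to 0.114), and without the third RU486 array 822 were called. Leaving out the second corticosterone array gave 16, the third 23, the second RU486 array 22 and the first corticosterone array 59. Because the spread is shared over the 18 arrays, leaving out arrays of other times moved the 2 h count as well, to between 36 and 155. On the first RU486 array Fkbp5 read 8.93, Fam107a 10.01 and Sult1a1 11.29, each above the other 2 RU486 arrays of that time.

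The comparison at 4 h gave 3538 genes (20.2%), 1799 higher and 1739 lower, and 1311 genes (7.49%) changed their difference between 4 and 6 h. At 6 h 256 genes were called (1.46%), 55 higher and 201 lower. The 4 h differences did not carry over to 6 h as a set: the 1799 genes higher at 4 h had a median log2 difference of 0.53 at 4 h and -0.00 at 6 h, where 888 of them were above 0, and the 1739 lower genes had medians of -0.53 and -0.00. At 2 h, 1591 of the 1799 higher genes were above 0 (median 0.21), and 1198 of the 1739 lower genes were below 0 (median -0.08). The glucocorticoid-induced list kept its median, at -0.92 at 4 h and -0.87 at 6 h. Genes lower at both times numbered 143, which is 8.22% of those lower at 4 h and 71.1% of those lower at 6 h; genes higher at both numbered 25 (1.39% and 45.5%). The 4 h count was between 2060 and 4483 when 1 array was left out, with 2060 without the third RU486 array of 4 h, 2325 without the second and 2246 without the first corticosterone array of 4 h.

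Polr2a, the largest subunit of RNA polymerase II, is an example of a gene called at 4 h and not at 6 h. It read 10.05, 11.01 and 11.39 with RU486 and 8.13, 8.87 and 9.00 with corticosterone at 4 h, a log2 difference of 2.15 ± 0.29 (SE; adjusted p = 0.000174). At 6 h it read 8.88, 9.16 and 9.45 against 9.12, 9.18 and 9.85, and the groups overlapped. Tomm6, a subunit of the mitochondrial outer-membrane translocase, read 11.41, 12.22 and 12.47 against 10.20, 9.85 and 9.87 at 4 h, and 10.23, 10.63 and 10.94 against 9.91, 10.08 and 11.37 at 6 h.
Gfap, the astrocyte intermediate filament, read 13.82, 14.65 and 14.80 against 12.08, 12.61 and 12.64 at 4 h (1.98 ± 0.29, SE; adjusted p = 0.000303) and 12.80, 13.09 and 13.02 against 12.27, 12.51 and 13.67 at 6 h (0.15, adjusted p = 0.991). The vehicle arrays spread as widely for Gfap, at 12.71, 14.15 and 14.24 at 2 h. For these genes the third corticosterone array at 6 h read above its 2 partners, and without that array 327 genes changed their difference between 4 and 6 h in place of 1311; without the first RU486 array of 6 h 192 did. The same count was 519 without the second RU486 array of 6 h, 491 without the first corticosterone array of 4 h, 2005, 479 and 498 without the first, the second and the third RU486 array of 4 h, and 2168 without the first RU486 array of 2 h. Lbh, a transcription cofactor, had the largest higher difference at 4 h (2.75), and Phlda1 (2.07), Bcl9l (2.01), a Wnt coactivator, and the integrin subunit Itga5 (1.71) were among the higher genes.

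**Figure D5:**
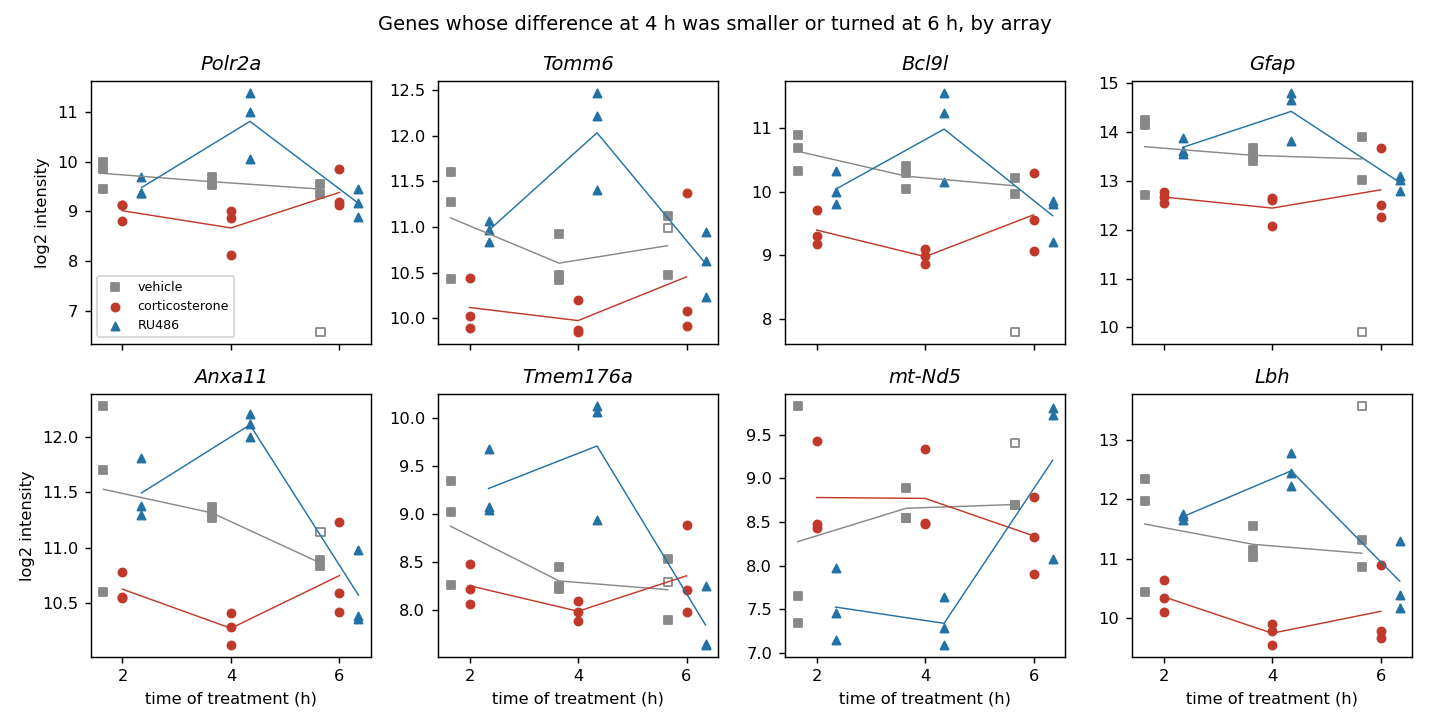
Log2 intensity of 8 genes on each array against time in h, drawn as in the plot of ligand-responsive genes by array. In 7 of the panels the RU486 triangles lie above the corticosterone circles at 4 h and overlap them or lie below at 6 h; for mt-Nd5, a mitochondrial subunit of complex I, they lie below at 4 h.

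At 6 h the called genes were more often lower with RU486, 201 against 55, although arrays without overlap were found for 1468 genes in the lower and 1706 in the higher direction, called or not. Fkbp5 (-3.23), Fam107a (-2.94), Bcat1 (-2.61), Pdk4 (-2.46) and Prodh (-2.44) were lowest, 54 genes were lower by at least 2-fold and 0 higher by that much. Npvf, the precursor of RFamide neuropeptides, was the highest, with 11.58, 11.75 and 12.02 against 10.93, 10.91 and 10.73 at 6 h (0.93 ± 0.17, SE; adjusted p = 0.00511), although at 2 h its RU486 arrays (11.40, 11.06 and 11.03) were below its corticosterone arrays (11.90, 11.60 and 11.51). Arl4c, a small GTPase (0.83), Arsi, a sulfatase (0.83), Cxcl10 (0.82) and Rcsd1 (0.80) followed. When 1 array was left out, Arl4c missed the threshold at 6 h in 14 of 18 fits, Arsi in 4 and Cxcl10 in 3. The 6 h count was 133 to 355 when 1 array was left out, and it was 165 and 133 without the first and the second corticosterone array of 6 h, and 136 and 149 without the first and second RU486 array.

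The difference changed between 2 and 6 h for 80 genes (0.457%), 75 of them downward, and between 2 and 4 h for 64 (0.365%). The 6 largest changes from 2 to 6 h were those of Prodh, Lcn2, Sult1a1, the lipid-droplet protein Plin4, Fkbp5 and the atypical kinase Mapk4. Lcn2, whose promoter is printed above, read 9.87, 8.71 and 8.74 with RU486 and 8.90, 9.02 and 8.75 with corticosterone at 2 h, and 7.71, 7.38 and 7.29 against 9.76, 9.30 and 9.78 at 6 h. Mapk4 read 7.77, 7.50 and 7.66 against 7.80, 7.69 and 7.65 at 2 h, and 6.96, 7.21 and 7.28 against 8.82, 8.96 and 9.08 at 6 h. The ligands overlapped at 2 h for 5 of the 6 genes, Fkbp5 being the exception, and were apart at 6 h for all 6. When 1 array was left out, whichever of the 3 times it came from, the count from 2 to 6 h ran from 35 to 260 and that from 2 to 4 h from 4 to 935.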

How the data were processed

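RNA of each sample was hybridised as biotin-labelled cRNA to Illumina mouse bead arrays, 1 array per sample. The deposited values are linear probe intensities; GenomeStudio is named per the submitters' processing notes, with no version, and background treatment is not given in the sources used here. The sorted columns of the deposited intensities differed by at most 1.15%, so quantile scaling is read from the values. The lowest intensity of 59.6 gives no sign of background subtraction, which the values alone cannot settle. A second deposited table holds 72 per-sample columns whose names match no label, and these were not used.

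Intensities were put on a log2 scale here. Probes brighter than the median probe of the array on 3 or more of the 18 arrays were kept; 26148 of 45281 probes passed, and the probe with the highest mean stood for each of 17513 genes. Symbols of the array design were updated through RefSeq's gene table (10724 current, 2844 updated, 3945 kept as they were). The 6 groups of ligand and time were fitted with limma 3.58.1 in R 4.3.3, which gave the difference at each time, its mean and its changes between times, with Benjamini-Hochberg adjustment over all genes at 0.05. The number of arrays limits the precision. Scripts were tested on simulated data. Contrasts with vehicle used 26 arrays.

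Genes are named by a rule: the 12 lowest and 12 highest on the mean among those called and with non-overlapping arrays at all times, the 5 lowest and 5 highest per time, the 6 largest of each change, and list members; predicted and unnamed loci were skipped. The members and lists were chosen with earlier results of these data known. Some genes that the rule names are not reported here. Genes called at all 3 times taken alone were named after their values were seen. Same-numbered RU486 and corticosterone arrays had correlated deviations at 2 h (0.589, 0.232 and 0.391), and the labels state no pairing. The second corticosterone array of 2 h correlated more with an RU486 array of another number (0.317), so a pairing by number is not settled. At 4 and 6 h the lowest of the 3 was 0.0216 and 0.0928, and the numbers were not taken to pair arrays. Alternatives were other filters, arrays, normalizations and variance models. Figures were drawn with matplotlib 3.10.9 under Python 3.11.15 with pandas 2.3.3.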

Additional observations from a re-analysis of the deposited data

Results flagged for a closer look

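The difference between the ligands, RU486 minus corticosterone on the log2 scale, changed between times for the genes below by the fit's own test of the change. Between 2 and 4 h it changed by -2.17 for Prodh, -1.61 for Plin4, -1.57 for Fkbp5, -1.32 for Gjb6 and -1.24 for Bcat1, and by 1.27 for Ptpn21, a protein tyrosine phosphatase. Between 4 and 6 h it changed by -2.37 for Polr2a, -2.24 for Lbh, -2.24 for Tmem176a, -2.03 for Bcl9l and -2.02 for Anxa11, an annexin, and by 2.30 for mt-Nd5. Between 2 and 6 h it changed by -2.38 for Prodh, -2.37 for Lcn2, -2.22 for Sult1a1, -2.18 for Plin4, -2.06 for Fkbp5 and -1.73 for Mapk4. Adjusted p-values from limma lay between 0.000325 (Mapk4) and 0.0457 (Plin4 between 2 and 4 h). The changes between 2 and 4 h rested most on single arrays: when 1 array was left out, Plin4 missed the threshold in 15 of 18 fits, Ptpn21 in 13, Fkbp5 in 12, Bcat1 in 11 and Gjb6 in 6. Between 4 and 6 h mt-Nd5 missed it in 6 and Bcl9l in 2, in each case also without the third corticosterone array of 6 h.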

How the results depend on the processing

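Of 72 named differences, 55 kept their call and direction in all 18 fits that left out 1 array, and 0 reversed under any of the 31 settings run, those 18 included; with the arrays of 1 time alone, where 30 of the 72 could be fitted, all 10 named at 2 h lost their call, and 2 of the 72 did not pass the filter of all 18 arrays; 3 lost their call with all probes kept apart, 2 with no filter and 1 with cyclic loess. When 1 array was left out, the genes called numbered 1372 to 2560 on the mean, 16 to 822 at 2 h, 2060 to 4483 at 4 h, 133 to 355 at 6 h, 4 to 935 for the change from 2 to 4 h, 192 to 2168 from 4 to 6 h and 35 to 260 from 2 to 6 h. With all 36 arrays in the fit, including the 2 that stood apart, they numbered 400 on the mean, 8, 688 and 70 at 2, 4 and 6 h, and 1, 0 (1512 at an unadjusted p under 0.05, limma) and 15 for the changes from 2 to 4, 4 to 6 and 2 to 6 h; 27 named differences lost their call there, among them the means of Wnt7a, Cxcl10, Tnfrsf11b and Fam110a. With 34 arrays, 441 were called at 2 h, 186 for the change from 2 to 4 h and 227 from 2 to 6 h. Array weights gave 5273, 1279, 7625 and 1384 on the mean and at 2, 4 and 6 h, and 3654, 5232 and 1625 for the changes. At 2 h, no filter gave 221, probes above the median on all 18 arrays 57, an intensity trend with a robust prior 176, and the arrays of that time alone 0 (2021 at an unadjusted p under 0.05, limma).

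With the replicate block, 3396 genes were called on the mean, 1293 at 2 h, 1049 for the change from 2 to 4 h, 2515 from 4 to 6 h and 573 from 2 to 6 h; 4473 and 372 at 4 and 6 h were within 1.5 times the counts without it, and no named difference changed its call. The count of glucocorticoid-induced members lower with RU486 was 18 with all 36 arrays and 24 with array weights, its extremes. Putting back the vehicle array that stood apart turned the sign of the difference from vehicle with RU486 for Phlda1 (-0.027), Lmcd1 (-0.0321), Prag1 (0.11), Bcl9l (0.15), Npvf (0.23) and Rcsd1 (-0.0605), and with corticosterone for Fam110a (0.21), the named genes for which it turned; it also turned with RU486 for Nr3c1 (0.02), Cyp51 (0.07) and 8 members of the glucocorticoid-induced list, and with corticosterone for 1 member. The cause was not tested. The values gave no sign of background subtraction, and background left in them would make differences of dim genes such as Hif3a look smaller.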

Other observations

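Of the 132 genes that limma called against vehicle with RU486 alone, 4 were members of the glucocorticoid-induced list, and some of the others belong to other lists. With the vehicle array that stood apart left out, the cholesterol genes Stard4 (-0.76, adjusted p = 0.0260) and Cyp51 (-0.38, adjusted p = 0.0273) were lower than vehicle with RU486, in limma. With corticosterone Stard4 stood at -0.37 and Cyp51 at -0.48. Cd44, a hyaluronan receptor, was lower than vehicle with RU486 (-0.65, adjusted p = 0.0346) and stood at -0.33 with corticosterone (adjusted p = 0.156). Chac1, a glutathione-degrading enzyme, was 0.31 above vehicle with each ligand (adjusted p = 0.00992 with RU486 and 0.000517 with corticosterone), and Folh1 was above vehicle with both, by 0.74 and 2.04. These genes were picked from the lists after their values were seen. With the vehicle array put back, 5 genes in all were called with RU486, none of the 5 genes named in this paragraph was (adjusted p from 0.121 to 0.926), and Cyp51 stood at 0.07.

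The difference changed between 2 and 6 h for a pair of reactive astrocyte genes, both picked after their values were seen. Osmr, the oncostatin M receptor, differed by 0.52 at 2 h and 0.66 at 4 h and by -0.71 at 6 h, and Serpina3n, a secreted protease inhibitor, by 0.43 at 2 h and by -0.49 and -0.72 at 4 and 6 h; the values at 4 and 6 h were called for both and those at 2 h for neither. The change from 2 to 6 h was -1.23 for Osmr (adjusted p = 0.00742, limma) and -1.14 for Serpina3n (adjusted p = 0.0192).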
